A study of Mus musculus with 2 samples.

Results

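The stathmins and neuronal microtubule proteins are 10 genes whose products bind, stabilise, destabilise or form the microtubules of migrating and differentiating neurons: Stmn1, Stmn2, Stmn3, Stmn4, Dcx, Dclk1, Map1b, Map2, Mapt and Tubb3. They were chosen by gene symbol, as every probe that is not a control and carries one of these names on the array, which covers 37006 gene names in all. Map2 was sought under its older symbol Mtap2, which the files do not use. The other 9 names were found as written. The 10 genes had 33 probes.

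RNA of 2 mouse brain cell samples was compared, 1 array each: a neurosphere sample and a sample of the VZ/SVZ, that is, the ventricular with the subventricular zone, where new neurons arise beside the lateral ventricle. Neurospheres are floating cultures that neural stem and progenitor cells form with growth factors. Both samples were labelled as brain of C57BL/6 mice aged 6 months, heterozygous for Ecrg4 and positive for β-galactosidase (Ecrg4hetero beta-gal positive). The labels place both in DMEM/F12 medium with bFGF, EGF and heparin, so the VZ/SVZ sample cannot be taken as uncultured tissue from them. The labels used here do not state how many mice stood behind a sample, how long cells were cultured or how positive cells were obtained.

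Microtubules grow and shrink by the addition and loss of tubulin dimers. Stathmins hold free tubulin dimers and promote shrinkage, whereas doublecortin, the doublecortin-like kinase, MAP1B, MAP2 and tau bind the lattice and stabilise it. In the adult subventricular zone doublecortin marks the chains of neuroblasts that migrate towards the olfactory bulb, class III β-tubulin is an early neuronal tubulin, MAP2 is a marker of dendrites and tau of axons. Stathmin 1 is also abundant in dividing cells, where its phosphorylation accompanies spindle assembly.

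Of the 33 probes, 24 were well above background on both arrays, 4 on 1 array only and 5 on neither. No spot was saturated. A level is log2 of the processed signal minus the 75th percentile of its array, which corresponded to a signal of 99.4 for the neurosphere and 106.1 for VZ/SVZ. A difference is the level in VZ/SVZ minus that in the neurosphere, and a gene higher in the neurosphere has a negative one. Errors after ± come from the scanner's error model, are technical, and hold no spread among animals or cultures. There are no replicates, so no test was made, no p-value is given, and each difference describes these 2 arrays. Ecrg4, heterozygous in both samples, had a signal of 351.1 in the neurosphere and 34.04 in VZ/SVZ (-3.46 ± 0.21). Nothing in the labels places the targeted part relative to its probe, so this value checks no label.

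The members did not move as a group. At the size of 2-fold, 3 of the 10 were higher in the neurosphere (Map2, Stmn3 and Stmn1) and 3 were higher in VZ/SVZ (Tubb3, Stmn4 and Mapt), while Dcx, Dclk1, Map1b and Stmn2 lay within 2-fold. Of all 26434 genes measured, 11.1% passed that size towards the neurosphere and 18.7% towards VZ/SVZ, together 29.7%. Of these calls 62.8% were towards VZ/SVZ, against 51.9% with quantile normalization and 53.7% with normexp, another background correction that adds an offset. The offset, 50 here, by itself shrinks differences that rest on low signals. The median difference of the members was 0.28, against 0.04 over all genes measured. Over the 9 members bright on both arrays the median was -0.03, against -0.05 over the 21907 such genes, of which the middle 90 percent ran from -1.52 to 1.88. Map2 and Stmn3 lay below that range and Tubb3 just above it. Under normexp only Tubb3 stayed past 2-fold towards VZ/SVZ, while the same 3 genes passed towards the neurosphere, beside 5.56% and 4.80% of all genes in those directions. Fewer cells of a type and less RNA per cell cannot be told apart in these bulk samples.

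**Figure D1:**
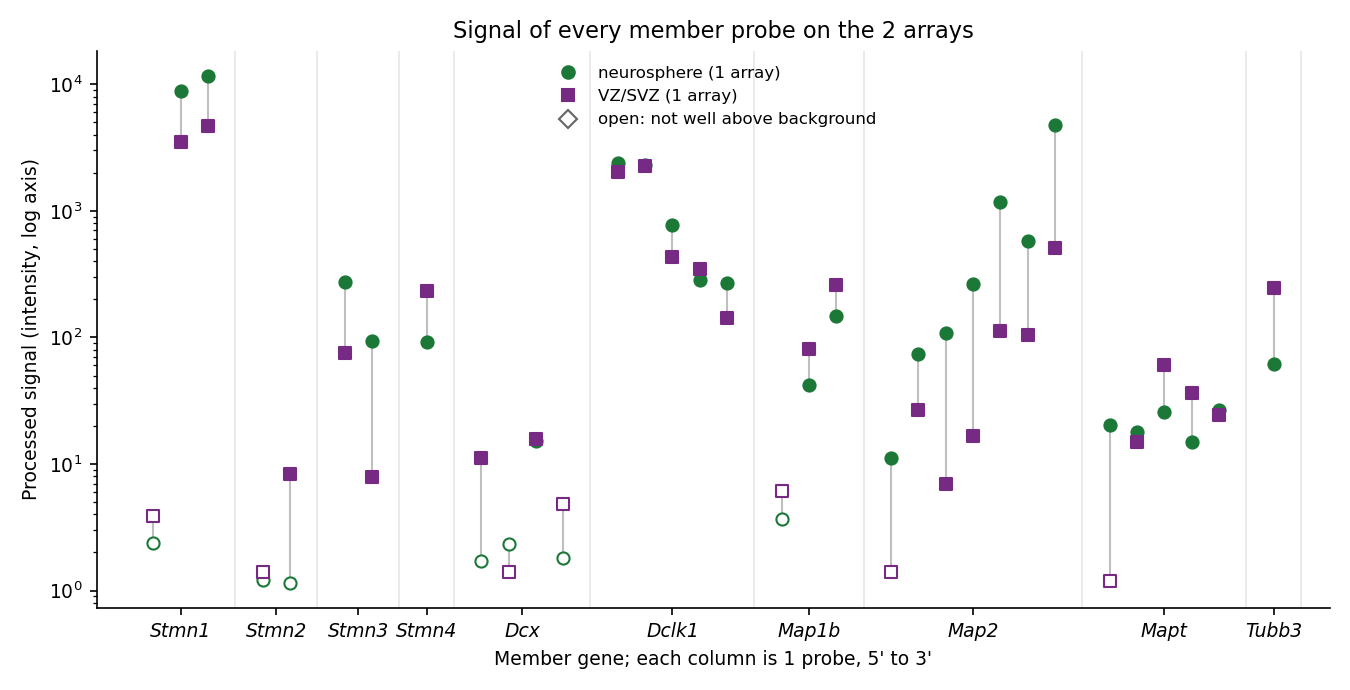
Processed signal (intensity, log axis) of each of the 33 member probes, ordered 5' to 3' within each gene, on the neurosphere array (circles) and the VZ/SVZ array (squares); open symbols are not well above background. The 7 probes of Map2 were all brighter in the neurosphere, whereas the probes of Mapt pointed both ways and those of Stmn2 were at or near background.

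The array probes are 60-base DNA oligos, and the first 30 bases of those on which the main values rest are shown to identify what was measured. The set holds the brightest probe of Map2, Stmn3, Stmn1, Tubb3, Stmn4 and Mapt.
Map2: gcctgttaccatagaaaggtattttttcaa
Stmn3: cagcggcgacaagaacgttttcgggttttg
Stmn1: taatgtagctatttttctcgttgcatcttt
Tubb3: cattagggctcccaggttaaagtccttcag
Stmn4: gagacctgccctgcagcgggtgggataagg
Mapt: atggtggactcaccacagcttgccacacta
Each probe hybridises to 1 short stretch of its transcript, so a value speaks for the transcripts that hold that stretch. The GC content of the 33 probes ran from 31.7% to 55.0%. Levels of different probes were compared to pick each gene's brightest probe. Marker signals were also summed over probes of different genes, so brighter probes weigh more in those sums. Probe positions are those of the files, on mm9, and whether a probe lies in a coding exon or a UTR was not analysed here.

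Among the stathmins, Stmn1 and Stmn3 were higher in the neurosphere, Stmn4 was higher in VZ/SVZ, and Stmn2 was bright in VZ/SVZ only. Stmn1 encodes stathmin 1, the founding tubulin-sequestering protein of the family. Its brightest probe, at chr4:134029522-134029581 (+ strand), had a signal of 11608 in the neurosphere and 4646 in VZ/SVZ, 2.67-fold higher in the neurosphere (-1.42 ± 0.20). The neighbouring probe of the same transcript gave 8862 and 3516 (-1.43 ± 0.20). The 2 probes thus differed from each other by less than their technical error, and 5.93% of genes bright on both arrays had a lower difference than Stmn1. The remaining probe, for an Ensembl transcript, was dim on both arrays, that is, not well above background.

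Stmn2 encodes the membrane-anchored SCG10 of growth cones. Its RefSeq probe, at chr3:8560382-8560441 (+ strand), had a signal of 1.16 in the neurosphere, not well above background, and 8.37 in VZ/SVZ. The dimmest probe counted as well above background had a signal of 5.20 on the neurosphere array and 5.93 on the other. Stmn2 was therefore detected close to the limit, and it was higher in VZ/SVZ by at least 1.51-fold, a bound that does not reach 2-fold. On the log2 scale that bound was 0.59, and it was 0.07 with normexp and 0.01 with quantile normalization. Its other probe was dim on both arrays.

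Stmn3 encodes SCLIP, another neuronal stathmin of Golgi membranes and growth cones. Its brighter probe, at chr2:181041396-181041455 (- strand), was printed in 10 spots per array, which gives it the smallest technical error of the members. The spots ran from 226.3 to 307.1 in the neurosphere (median 279.8) and from 64.9 to 82.0 in VZ/SVZ (median 74.98). The lowest neurosphere spot was above the highest VZ/SVZ spot, and the SD between spots was 0.12 and 0.10 on the log2 scale. The difference was -1.97 ± 0.07, or 3.93-fold, and -1.40 with normexp. Spots of an array share 1 labelled RNA and are no biological replicates.

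The second Stmn3 probe lies 0.23 kb further 3' on the same transcript and gave a larger difference, from 93.5 in the neurosphere to 7.91 in VZ/SVZ (-3.66 ± 0.33, 12.6-fold). The VZ/SVZ signal was near the lowest bright one, and with normexp the difference was -1.19. This probe holds the polyadenylation-signal letters AATAAA, shown in capitals in 30 of its bases because they place it near a candidate transcript end.
Stmn3, second probe: gttggcaaccttAATAAAtctagtggcagt
AATAAA or ATTAAA, searched on the strand of the probe, occurs in 3 of the 33 member probes (9.09%) and in 13.4% of 56605 probes on the array.

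Stmn4 encodes RB3, a stathmin enriched in brain. It had 1 probe, at chr14:66980426-66980485 (+ strand). The signal was 92.0 in the neurosphere and 233.8 in VZ/SVZ, 2.38-fold higher in VZ/SVZ (1.25 ± 0.21). With normexp the difference was 0.90, under 2-fold.

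The doublecortins showed no difference of 2-fold or more in their brightest probes. Dcx encodes doublecortin, which binds between protofilaments and marks migrating neuroblasts. Its brightest probe, assigned to a RefSeq variant at chrX:140296337-140296396 (- strand), had a signal of 15.2 in the neurosphere and 15.8 in VZ/SVZ (-0.03 ± 0.27). These are low signals on both arrays, and with quantile normalization the difference was -0.47.

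The other 3 Dcx probes did not settle the level. A probe for an Ensembl transcript 12.02 kb upstream of the brightest was dim in the neurosphere at 1.70 and bright in VZ/SVZ at 11.1. The bound was 2.01-fold or more towards VZ/SVZ. With normexp the measured difference of this probe was 0.13. The remaining 2 were dim on both arrays, with signals from 1.41 to 4.80, and the more 3' of them is assigned to another RefSeq variant.

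Dclk1 encodes a kinase with doublecortin domains, found in radial glia and neurons. Its brightest probe, at chr3:55275120-55275179 (+ strand), had a signal of 2306 in the neurosphere and 2242 in VZ/SVZ (-0.14 ± 0.20, and 0.15 with quantile normalization). A probe 8.20 kb nearer the 5' end of the gene, for the same RefSeq variant, gave -0.32 ± 0.20. The 2 probes for another RefSeq variant, 53.9 kb and 75.9 kb from the first, went from 777.8 to 435.6 and from 266.9 to 142.8. Both were just under 2-fold higher in the neurosphere (-0.93 ± 0.20 and -0.996 ± 0.20). Between them a probe for a cDNA clone gave 0.22 ± 0.20. The 5 probes ranged over 1.21 on the log2 scale, and 44.6% of the 679 genes with at least 4 probes bright on both arrays had a smaller range.

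The structural microtubule-associated proteins included the largest difference of all members. Map2 encodes MAP2, which spaces and stabilises dendritic microtubules. Its brightest probe, at chr1:66489030-66489089 (+ strand), had a signal of 4806 in the neurosphere and 504.5 in VZ/SVZ, 10.2-fold higher in the neurosphere (-3.35 ± 0.20). Only 0.342% of genes bright on both arrays had a lower difference. Normexp and quantile normalization gave -3.20 and -3.12.

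All 7 Map2 probes were brighter in the neurosphere, over 38.8 kb of the gene. From 5' to 3', the first was bright in the neurosphere only, at 11.1 against 1.40 (at least 1.998-fold; measured difference -0.39 with normexp). The second went from 73.9 to 26.8 (-1.56 ± 0.22, and -0.70 with normexp). The third went from 107.4 to 6.91 (-4.05 ± 0.35). The files assign these 3 Map2 probes to 3 different Ensembl transcripts, and the next probe to that of the third.
The next Map2 probe went from 262.2 to 16.7 (-4.06 ± 0.24). The fifth went from 1175 to 113.2 (-3.47 ± 0.20), and the sixth from 574.2 to 104.1 (-2.56 ± 0.20). The 6 probes bright on both arrays ranged over 2.51, and 88.5% of genes with at least 4 such probes had a smaller range. With normexp the probes at -4.05 and -4.06, whose VZ/SVZ signals were low, gave -1.40 and -2.13. The order of the probes thus changed with normexp while the direction did not. The normexp offset of 50 lies above the VZ/SVZ signals of these probes and by itself shrinks such differences.
The probes at both ends of that range are shown by their first 30 bases, to identify the stretches that differed most.
Map2, probe of the smallest difference: acctaacctgaagaaaatgatgctaatatt
Map2, probe of the largest difference: aaacctgctatcaaatacactagaccaact

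Mapt encodes tau, the axonal microtubule-associated protein, and its probes disagreed in direction. The brightest, at chr11:104189430-104189489 (+ strand), had a signal of 25.8 in the neurosphere and 60.2 in VZ/SVZ, 2.19-fold higher in VZ/SVZ (1.13 ± 0.22). The adjacent Mapt probe went from 14.8 to 36.4 (1.20 ± 0.23, and 0.34 with normexp). The most 3' probe had 26.8 and 24.6 (-0.22 ± 0.23), and the second from the 5' end, on an Ensembl transcript, 17.9 and 14.9 (-0.36 ± 0.25).
The most 5' Mapt probe was bright in the neurosphere only, with 20.2 against 1.19, and so higher there by at least 3.63-fold. With normexp its measured difference was -0.56. It begins as follows and lies 45.7 kb from the probe that gave the brightest value.
Mapt, first probe: gcaggagtttgacacaatggaagaccatgc
The median over the 5 Mapt probes was -0.22, and the brightest probe gave 0.49 with normexp and 0.91 with quantile normalization. The count of Mapt among the genes higher in VZ/SVZ therefore rests on the choice of probe and on the processing.

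Map1b encodes MAP1B, which is high in growing axons and acts early in neurite extension. The brightest probe, at chr13:100192506-100192565 (- strand), had a signal of 146.3 in the neurosphere and 257.4 in VZ/SVZ (0.72 ± 0.20, 1.65-fold). A second probe on the same transcript went from 42.0 to 81.7 (0.86 ± 0.21). Both were higher in VZ/SVZ by more than the technical error and by less than 2-fold. The third, for a cDNA clone, was dim on both arrays.

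Tubb3 encodes class III β-tubulin, the neuronal tubulin isotype. It had 1 probe, at chr8:125945701-125945760 (+ strand), with a signal of 61.5 in the neurosphere and 244.2 in VZ/SVZ. It was 3.72-fold higher in VZ/SVZ (1.90 ± 0.21), and 95.1% of genes bright on both arrays had a lower difference. With normexp the difference was 1.29, and with quantile normalization 1.91.

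**Figure D2:**
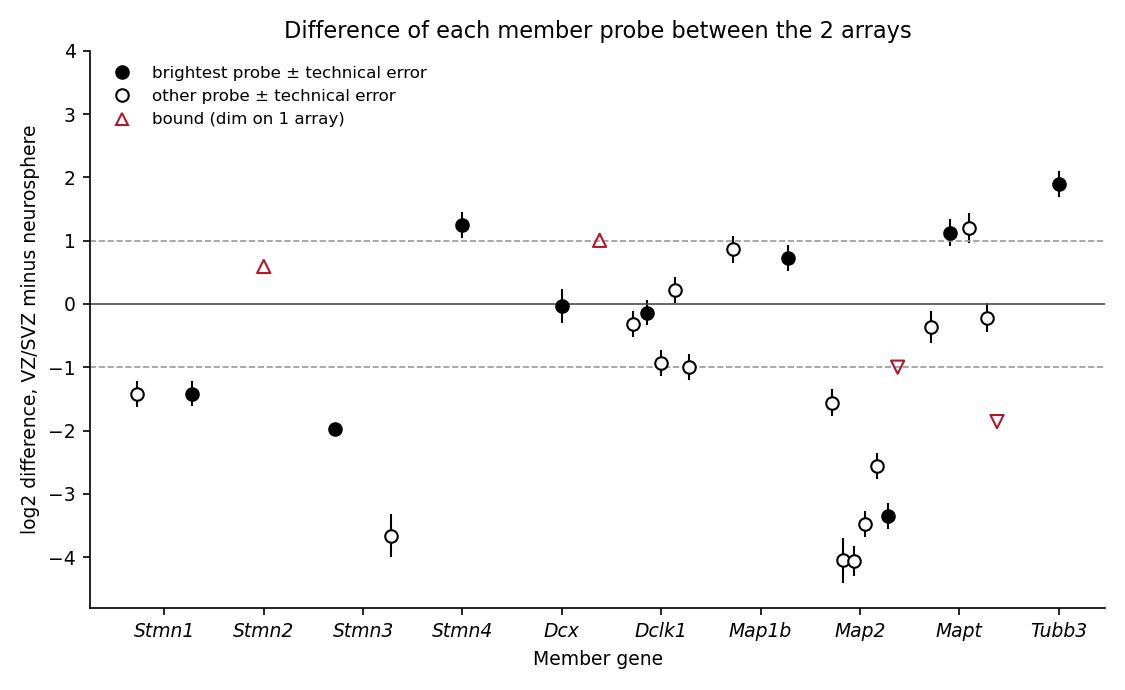
log2 difference (VZ/SVZ minus neurosphere) of each member probe bright on both arrays, with the technical error as bars; filled circles are the brightest probe of a gene, triangles are bounds, and dashed lines mark 2-fold. Map2, Stmn3 and Stmn1 lie below -1 and Tubb3, Stmn4 and the brightest Mapt probe above 1.

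**Figure D3:**
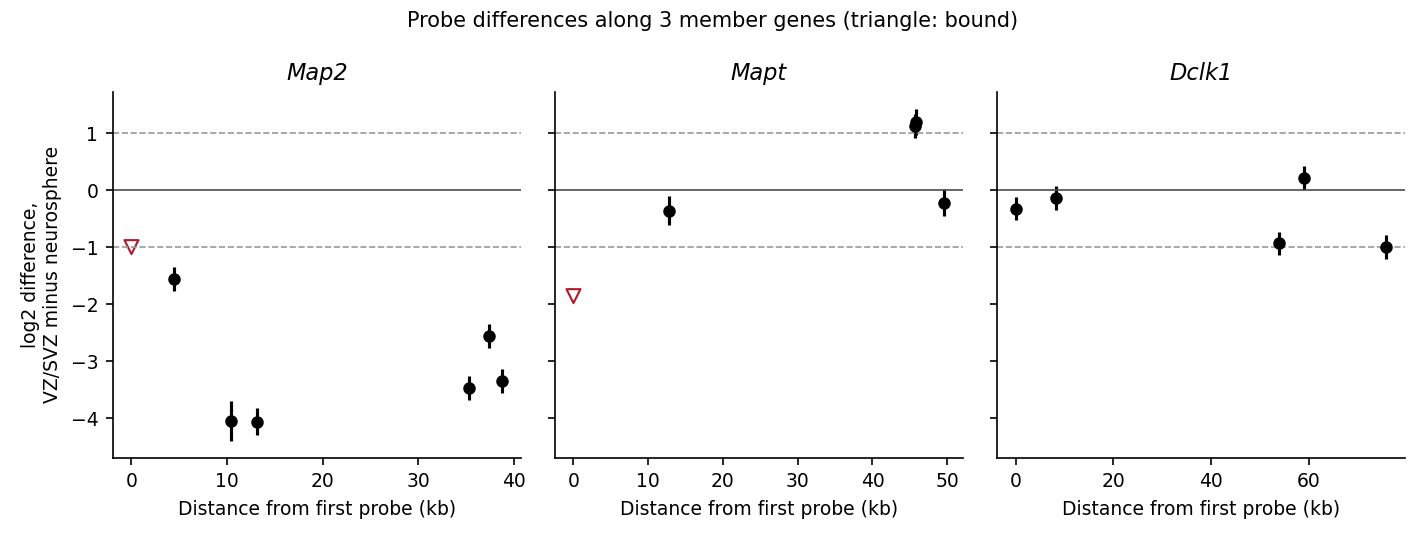
log2 difference of the probes of Map2, Mapt and Dclk1 (vertical axis, with technical error) against their distance in kb from the first probe at the 5' end; triangles are bounds. The Map2 probes lie below 0 over the 38.8 kb that they span, the Mapt probes differ in sign along their gene, and the Dclk1 probes stay within 2-fold.

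The promoters of the members differed in composition. RefSeq promoter windows on GRCm38.p6 were found for 6 of the 10 genes, and the 250 bases before the start were searched on both strands for the E-box letters CANNTG, the core bound by basic helix-loop-helix factors, and for the GC-box letters GGGCGG, the core bound by Sp-family factors. CANNTG occurs in 66.2% and GGGCGG in 32.7% of 32851 such windows, whose median GC content was 52.4%. Those of Map2 and Tubb3, which differed most in opposite directions, both held GC boxes (5 and 2) and no CANNTG, with a GC content of 81.2% and 68.0%. Those of Stmn3 and Map1b, which also differed in opposite directions, each held the E-box CAGATG once, and Map1b also 1 GC box. Their GC content was 48.8% and 66.4%. Dcx had 2 overlapping windows with neither motif, and Dclk1 had 2 windows with 2 E-boxes and 1 E-box. A match is a description of letters and not a bound site. The 4 windows are printed with both motifs in capitals; a GC box on the opposite strand reads CCGCCC.
Map2, chr1:66175079-66175328, + strand: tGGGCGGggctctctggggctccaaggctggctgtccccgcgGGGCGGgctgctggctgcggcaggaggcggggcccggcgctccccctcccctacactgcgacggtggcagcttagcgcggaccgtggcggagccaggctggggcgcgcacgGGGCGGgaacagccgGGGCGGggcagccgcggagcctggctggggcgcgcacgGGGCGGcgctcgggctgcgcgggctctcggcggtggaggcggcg
Tubb3, chr8:123411303-123411552, + strand: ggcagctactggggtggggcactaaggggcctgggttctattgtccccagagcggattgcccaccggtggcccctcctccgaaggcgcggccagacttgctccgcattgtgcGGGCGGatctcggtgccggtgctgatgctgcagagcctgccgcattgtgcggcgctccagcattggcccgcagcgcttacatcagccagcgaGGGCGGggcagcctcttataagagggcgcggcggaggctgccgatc
Stmn3, chr2:181314501-181314750, - strand: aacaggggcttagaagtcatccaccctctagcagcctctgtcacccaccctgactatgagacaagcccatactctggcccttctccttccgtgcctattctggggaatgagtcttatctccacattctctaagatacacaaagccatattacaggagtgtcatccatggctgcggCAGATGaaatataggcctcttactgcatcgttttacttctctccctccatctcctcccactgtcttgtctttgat
Map1b, chr13:99516603-99516852, - strand: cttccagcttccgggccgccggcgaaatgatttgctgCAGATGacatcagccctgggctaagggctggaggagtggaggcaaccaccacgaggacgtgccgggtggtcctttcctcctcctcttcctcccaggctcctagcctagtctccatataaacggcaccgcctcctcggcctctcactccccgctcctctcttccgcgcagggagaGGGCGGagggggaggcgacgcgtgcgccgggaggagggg

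Other genes of the microtubule system were read from lists chosen by function, and a pair of signals in parentheses gives the neurosphere first. Of 17 tubulins measured, 3 passed 2-fold towards the neurosphere, 1 passed it towards VZ/SVZ and 13 stayed within it; the median was -0.61. The largest differences were in Tuba4a, an α-tubulin (35.5 in the neurosphere and 222.8 in VZ/SVZ, 2.55 ± 0.21, and 1.55 with normexp), Tubd1, the centriolar δ-tubulin (-2.05 ± 0.24, and -0.71 with normexp), and Tubg1, the nucleating γ-tubulin (-1.25 ± 0.20, and -0.999 with normexp). With normexp 1 tubulin and with quantile normalization 6 tubulins passed towards the neurosphere. Tubb3 and Tuba4a were thus higher in VZ/SVZ by 2-fold or more in their brightest probes, whereas the median tubulin was higher in the neurosphere. The probes of Tuba4a ran from 0.74 to 2.55 and those of Tuba1c from -0.97 to 3.03. Tubb4a was higher in VZ/SVZ by less than 2-fold (0.94).

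Of 29 other microtubule-associated proteins measured, 6 passed 2-fold towards the neurosphere, 2 towards VZ/SVZ and 21 stayed within it, and the median was -0.05. Map6, the stabiliser also called STOP, was 4.67-fold higher in the neurosphere (423.1 and 96.8, -2.22 ± 0.21), but its probes ran from -2.22 to 0.71. Nav2, a neuron navigator, was 3.72-fold higher in the neurosphere, with 9 probes from -2.30 to 0.73. Map7d3, a MAP7-family gene, was 3.92-fold higher in VZ/SVZ from a low signal (8.29 and 34.65, 1.97 ± 0.30), and the difference was 0.37 with normexp.

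Of 21 genes of the doublecortin family and the lissencephaly and reelin pathways, 6 passed 2-fold towards the neurosphere, 2 towards VZ/SVZ and 13 stayed within it, and the median was -0.47. Dab1, the adaptor of reelin signalling, was 10.2-fold higher in the neurosphere (389.6 and 40.9, -3.35 ± 0.21, and -2.31 with normexp). The reelin receptor gene Lrp8 was 4.58-fold higher there, with probes from -2.19 to 0.13, and gave -0.996 with normexp. Dync1i1, a dynein intermediate chain gene, was bright in VZ/SVZ only (41.2) and at least 7.42-fold higher there. With normexp its measured difference was 0.67, and the list's counts became 2 towards the neurosphere and 0 towards VZ/SVZ.

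Of 13 collapsin response mediator and growth cone genes, 6 passed 2-fold towards the neurosphere, 2 towards VZ/SVZ and 5 stayed within it, and the median was -0.98. Dpysl3, which encodes CRMP4, was 22.4-fold higher in VZ/SVZ (47.4 and 1136, 4.49 ± 0.21, and 3.44 with normexp). Its paralogue Dpysl5, which encodes CRMP5, was higher in the neurosphere by at least 10.9-fold (60.5 and 2.63, the latter dim), with a measured difference of -1.04 under normexp. Gap43, the growth cone phosphoprotein, was 3.48-fold higher in the neurosphere (845.2 and 259.2, -1.80 ± 0.20). As with the stathmins, members of 1 family differed in opposite directions.

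Of 31 enzymes that modify, fold or sever tubulin, 4 passed 2-fold towards VZ/SVZ, 2 towards the neurosphere and 25 stayed within it, and the median was 0.02. Katnal2, a katanin-like severing protein, was 4.16-fold (-1.05 with normexp) and Fignl1, a fidgetin-like protein, 3.54-fold higher in the neurosphere, the latter with probes from -2.37 to 0.26. Agbl2, a tubulin carboxypeptidase, was 4.07-fold higher in VZ/SVZ (0.54 with normexp).
Of 17 kinases and phosphatases known to act on the members, 5 passed 2-fold towards the neurosphere, 2 towards VZ/SVZ and 10 stayed within it, and the median was -0.43. Mapk13, a p38 kinase, was 6.86-fold higher in VZ/SVZ (log2 difference 2.78, and 1.495 with normexp). Cdk1, the mitotic kinase that phosphorylates stathmin 1, was 4.53-fold (191.4 and 45.1, -2.18, and -1.34 with normexp) and Mapk10, the neuronal JNK, 3.96-fold higher in the neurosphere.
The list of 21 transcription factors of neurogenesis also holds factors that restrain it, such as Id1. Of the 16 measured, 3 passed 2-fold towards VZ/SVZ, 1 towards the neurosphere and 12 stayed within it, and the median was 0.26. With normexp the counts were 2 towards VZ/SVZ and 1 towards the neurosphere. Sox11, an activator of Dcx and Tubb3 in new neurons, had a signal of 827.4 in the neurosphere against 207.2 in VZ/SVZ (-2.09 ± 0.20, 4.26-fold). Dlx2, a factor of interneuron progenitors, was 6.66-fold higher in VZ/SVZ (15.5 and 110.4, 2.74, and 1.15 with normexp), and Id1, an inhibitor of helix-loop-helix factors, 2.74-fold.

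**Figure D4:**
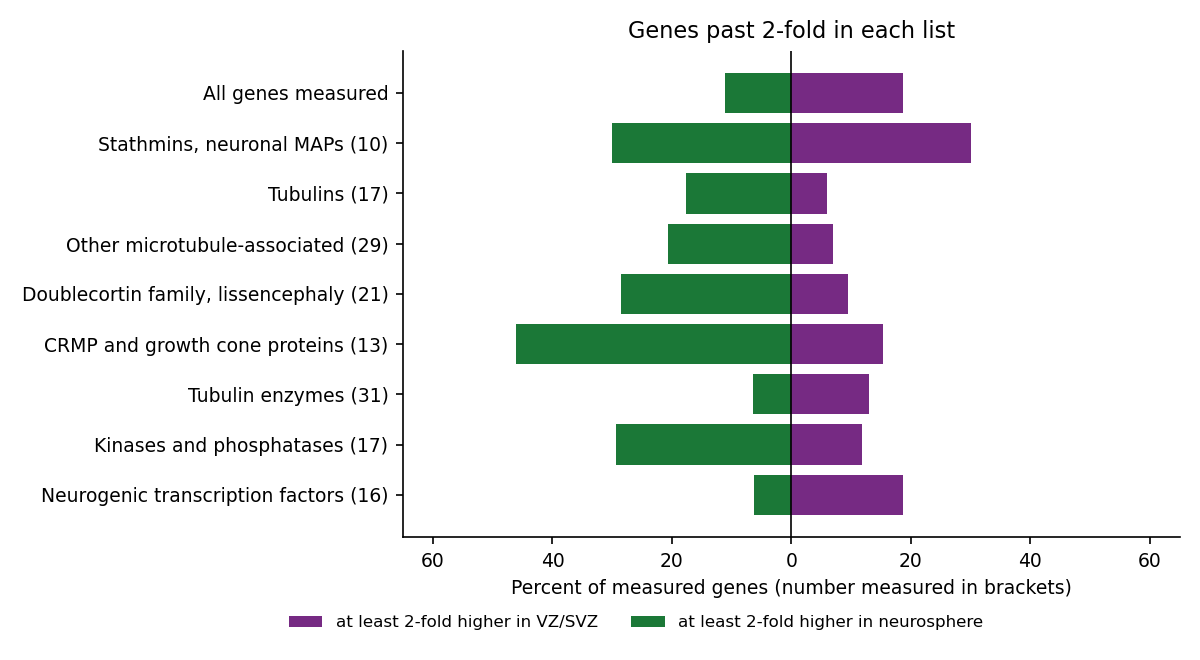
Percent of measured genes that passed 2-fold towards VZ/SVZ (right) or towards the neurosphere (left) for all 26434 genes, the 10 members and 7 lists of related genes, with the number measured in brackets. The growth cone list holds 6 of 13 genes towards the neurosphere, and the members 3 of 10 in each direction.

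Markers of cell types that such samples could hold were read beside these values, and their part in the differences of the members was not tested. All 12 markers of dividing cells were higher in the neurosphere by 2-fold or more in their brightest probes. The count was 11 with normexp, where Plk1 gave -0.98, and 11 with the median over probes. The probes of Bub1 ran from -2.06 to 3.32. The median of the 12 markers was -2.12, and Cdk1 is among them. Their summed signal, in multiples of the array's 75th percentile, was 122.7 in the neurosphere and 28.4 in VZ/SVZ. Of the 9 stem and radial glia markers measured, 4 passed towards the neurosphere and 2 towards VZ/SVZ. Their sums were 664.9 (neurosphere) and 354.7 (VZ/SVZ), of which Fabp7 alone gave 423.8 and 200.3. Without Fabp7 the sums were 241.1 and 154.4.

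Of 14 neuroblast markers, 11 were measured, of which 3 passed towards VZ/SVZ and 2 towards the neurosphere. Their sums were 63.5 (neurosphere) and 144.6 (VZ/SVZ), of which Elavl4 alone gave 39.1 and 131.2. Without Elavl4 the sums were 24.3 and 13.4, higher in the neurosphere. Dlx5, Dlx6 and Igfbpl1 were dim on both arrays, and Dcx itself was near background. Of 14 neuron markers, 8 were bright in the neurosphere and 11 in VZ/SVZ. Rbfox3, Nefh and Slc17a7 were dim on both arrays. Of the 11 measured, 6 passed towards VZ/SVZ (Nefm, Thy1, Nefl, Gad2, Elavl3 and Syt1) and 3 towards the neurosphere (Elavl2, Syn1 and Uchl1). Nefm, Nefl and Syt1 were dim in the neurosphere, so their differences are bounds. Of the members, Tubb3, Stmn4 and Mapt passed towards VZ/SVZ, and Map2, Stmn3 and Stmn1 towards the neurosphere. The sums of the neuron markers were 60.3 (neurosphere) and 74.97 (VZ/SVZ), of which Snap25 gave 54.2 and 51.1. Without Snap25 the sums were 6.09 and 23.9. The median difference of 1.16 fell to 0.13 with normexp, and the counts of neuron markers became 4 towards VZ/SVZ and 0 towards the neurosphere. The probes of Uchl1 ran from -1.16 to 2.62 and those of Elavl3 from -0.45 to 1.38.

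All 6 fibroblast markers passed towards VZ/SVZ, at a median difference of 8.02, and 5 of them (Col1a1, Col3a1, Dcn, Lum and Pdgfrb) were dim in the neurosphere. Their summed signal was 0.417 (neurosphere) and 108.2 (VZ/SVZ). Of 5 endothelial markers, 4 passed towards VZ/SVZ and 1, Flt1, towards the neurosphere, with sums of 1.999 and 6.50. Of 6 markers of ependyma, the lining of the ventricle next to the VZ/SVZ, 5 were measured, of which 3 passed towards the neurosphere and 0 towards VZ/SVZ, with sums of 10.3 and 2.31. Of 6 astrocyte markers, 2 passed 2-fold in each direction, with sums of 49.5 and 53.2, or 39.5 and 18.99 without Gja1. Of 10 oligodendrocyte lineage markers measured, 2 passed 2-fold in each direction, 6 differences were positive and 4 negative, and the median was 0.20. The sums of these markers were 137.6 and 58.2, of which Olig2 gave 77.8 and 22.5. Without Olig2 they were 59.8 and 35.7, which still hold the bright Olig1 (signals of 5265 and 2991). Cx3cr1, P2ry12, C1qa and Tyrobp, which mark microglia, were dim on both arrays, and the 2 other microglia markers lay within 2-fold, with sums of 15.8 and 17.6, nearly all from Csf1r (15.8 and 17.5).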

How the data were processed

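Cy3-labelled total RNA was hybridised to 1-colour Agilent arrays, 1 per sample. The deposited scanner files hold intensity values of Feature Extraction 11.5.1.1, protocol GE1_1105_Oct12, per the file headers. Version 9.1 stands in the submitters' processing notes. Per the file headers, the signal had its background subtracted by that software, with no scaling across arrays. The deposited value table of the authors holds the same intensity values (median ratio 1.00, column medians 12.95 and 18.55, linear, uncentred).

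Groups came from the sample titles. Of 62976 spots per array, 3671 control spots were left out, and so were 186 positions that the software marked as outliers on either array. Levels were log2 of the signal minus the 75th percentile over probes, and spots of a probe were averaged. A probe is well above background when most of its spots carry the software's mark for that. A gene took its brightest probe among those well above background on at least 1 array. A gene dim on 1 array got a bound, set by its dim level or that array's lowest bright level, whichever was higher. Symbols were updated through RefSeq tables.

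The members and lists were chosen with earlier results of these data known. The text names every member and, from each related list, the 3 genes with the largest difference; other marker genes named were chosen after their values were seen. Alternatives were normexp with an offset of 50 (limma 3.58.1, R 4.3.3), quantile normalization, another scaling, probe and spot rules, dim-probe filters, the deposited table, and sizes of 1.5-fold and 3-fold. The rule that gives each gene its difference was tested on simulated arrays, built from the VZ/SVZ levels with the scanner's noise only. The differences put in were all larger than 2-fold and in genes bright in VZ/SVZ. Differences near 2-fold, or in genes with low VZ/SVZ signals, were not tried. The 2 arrays limit the precision.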

Additional observations from a re-analysis of the deposited data

How the results depend on the processing

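The members higher in VZ/SVZ by the set size numbered 3, but 1 with normexp background correction, 2 with quantile normalization, 2 with the median over probes, 4 with no filter on dim probes, 5 at 1.5-fold and 1 at 3-fold. The members higher in the neurosphere numbered 3 in every alternative except 3-fold, where they were 2. No share of all genes at 1.5-fold or 3-fold is given, so the member counts at those sizes have no baseline. Mapt turned to -0.22 with the median over its probes, since that median takes in probes that oppose the brightest. Of 79 recomputed member differences, 67 moved by less than their technical error. The sign turned in 3: that of Mapt, that of Dclk1 from -0.14 to 0.15 with quantile normalization, and that of Dcx from -0.03 to 0.49 with the median over probes. The other 9 moved by more and kept their sign. The deposited table, kept outlier spots, the other scaling and the limit to probes bright on both arrays left the member differences nearly unchanged. Many of the 67 could therefore hardly move, and their number is no measure of stability. The larger moves came with normexp, quantile normalization and the median over probes, and for Stmn2 without the filter on dim probes. Over all genes, 4934 passed 2-fold towards VZ/SVZ and 2927 towards the neurosphere, so 62.8% of the calls were towards VZ/SVZ; with normexp the counts were 1470 and 1268 (53.7%), and with quantile normalization 3908 and 3629 (51.9%). With the median over probes 18.3% of all genes passed towards VZ/SVZ and 10.2% towards the neurosphere. The shares with quantile normalization were 14.8% and 13.7%. Without the filter on dim probes the count towards VZ/SVZ was 7670 of 37006 genes (20.7%), against 18.7% of 26434. The share of calls towards VZ/SVZ thus depends on the processing, and the cause was not tested. No paired analysis was possible because each group has 1 array. The lowest bright signals, 5.20 and 5.93, limit what can be read of Stmn2 and Dcx.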
